A study of Mus musculus with 7 samples.

Results

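The collagen genes of the mouse were followed in ribosome-bound and total RNA from the tissue around the brain ventricles. Members were all gene symbols of the form Col, number, a, number, which gave 44 of the 32531 symbols in the count tables. All libraries came from adult mice of the Dcdc2a-EGFP/Rpl10a line ES2575, in which the ribosomal protein Rpl10a is fused to EGFP in the cells that the Dcdc2a transgene is active in. TRAP (translating ribosome affinity purification) pulls the tagged polysomes out of the homogenate with antibodies to EGFP. There were 3 immunopurified libraries (IP 1, 3 and 4) and 4 libraries of the unpurified homogenate (Input 1 to Input 4), and the tag was present in the animals of both groups. The series describes the purified cells as ependymal, the ciliated cells that line the ventricles. The labels name no animal, sex or exact age for any library, so p-values measure the spread between these libraries, which may be technical. A number links an IP and an Input that ran on the same sequencing lane.

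Collagens are secreted or membrane proteins built from chains wound into a triple helix rich in glycine and proline. Fibrillar collagens (types I, II, III, V, XI, XXIV and XXVII) pack into the banded fibrils of connective tissue, type IV forms the mesh of basement membranes, and type VI forms beaded microfilaments between them. FACITs (fibril-associated collagens with interrupted triple helices) sit on the surface of fibrils, multiplexins lie in basement membrane zones, and the transmembrane collagens stay anchored in the plasma membrane until they are shed. In the brain, fibrils are found mainly in the meninges, the choroid plexus stroma and around larger vessels, while basement membranes surround all vessels and the brain surface.

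A few sequences show how the members that stood out begin. The genes for type IV chains lie in head-to-head pairs, and the start regions of the Col4a1 and Col4a2 pair and of the Col4a4 and Col4a3 pair are given to show how closely the partners lie. A stretch that ends just before the start of the full-length Col1a2 transcript, and one before the start of Col6a5, are given because both genes were higher in IP. The Col1a2 stretch lies inside the gene as GENCODE M21 bounds it, in an intron of an incomplete model that starts at 4504814. All are from RefSeq, build GRCm38.p6, read 5′ to 3′ on the strand named.
Col4a1 and Col4a2, chr8:11312801-11312830, plus strand, with the bases from the Col4a2 start to the Col4a1 start in capitals: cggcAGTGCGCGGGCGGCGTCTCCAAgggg
Col4a4 and Col4a3, chr1:82586850-82586920, minus strand, the bases between the starts: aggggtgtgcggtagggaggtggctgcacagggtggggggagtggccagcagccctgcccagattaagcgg
Col1a2, chr6:4505370-4505492, plus strand, with each GGGCGG in capitals: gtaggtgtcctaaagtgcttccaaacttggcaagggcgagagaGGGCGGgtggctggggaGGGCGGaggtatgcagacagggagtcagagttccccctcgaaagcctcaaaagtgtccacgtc
Col6a5, chr9:105960644-105960893, minus strand, with its GGGCGG in capitals: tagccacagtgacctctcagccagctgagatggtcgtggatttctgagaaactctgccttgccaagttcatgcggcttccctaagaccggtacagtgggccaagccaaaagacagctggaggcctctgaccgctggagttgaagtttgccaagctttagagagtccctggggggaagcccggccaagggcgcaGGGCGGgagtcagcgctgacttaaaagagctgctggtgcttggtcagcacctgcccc
In GENCODE M21, Col4a1 and Col4a2 share 22 bases at their starts, Col4a4 and Col4a3 leave 71 bases between them, and Col4a6 and Col4a5 leave 1308. GGGCGG, the core of the GC box, was searched on both strands in the 250 bases before the start and lay in 22 of 38 collagen windows (57.9%), which cover 35 of the members, against 32.7% of all 32851 RefSeq windows. TATAAA lay in 5 collagen windows (13.2%) against 12.4% of all, and CCAAT in 13 (34.2%) against 33.8%. Some genes hold more than 1 of these motifs, matches of different motifs can share end letters, and each match is a description of letters.

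Of the 44 collagen genes, 38 had enough reads to be tested. Of these, 5 were higher in IP and 0 lower: Col1a1 and Col1a2 (fibrillar), Col4a2 (basement membrane), Col6a5 (type VI) and Col12a1 (FACIT). This used edgeR's quasi-likelihood test with an adjusted p under 0.05 over all genes (adjusted p below is from this test unless another is named), under which 3.64% of the 17375 tested genes were higher and 2.16% lower. Before adjustment, 16 collagens had a p under 0.05 with a positive fold and 1 with a negative fold (Col25a1), and DESeq2 called 13 higher and 0 lower and limma-voom 1 and 0. No share of all genes was computed for the unadjusted p, so that count has no background here. Over all genes DESeq2 also called more than edgeR and limma-voom fewer, with the counts given in the last section. The log2 fold was positive in 34 of the 38, against 53.1% of all tested genes, and its median over the collagens was 1.35 against 0.06 over all genes. Every IP lay above every Input for 14 collagens, against 9.55% of all tested genes, and every IP lay below every Input for 0, against 10.4%. The count of 5 depended on which libraries were in the fit. It was 15 without IP 1 (12.5% of all genes were then higher), of which 14 were among the 38 and the other was Col13a1. It was 2 without IP 3, 1 without Input 2, and 0 without IP 4, Input 1, Input 3 or Input 4. The number of all genes called also changed with the library left out, over the range given in the last section. Apart from the fit without IP 1, no share of all genes is given beside these counts. They therefore have no background here and are not a trait of the collagens. With the replicate number as a block, 2 collagens were higher, Col1a2 and Col6a5, against 0.54% of all genes, and 0 were lower, against 0.17%. The block fit also left out Input 2, which has no IP of its number. A call lost with the block can therefore reflect the block or the missing library. Of the 38, 8 could not have passed the filter on their Input reads alone, since they (Col2a1, Col3a1, Col5a2, Col5a3, Col6a5, Col11a2, Col22a1 and Col24a1) reached the filter's 0.236 counts-per-million (CPM, on the scale of the fit) in fewer than 3 Inputs.

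**Figure D1:**
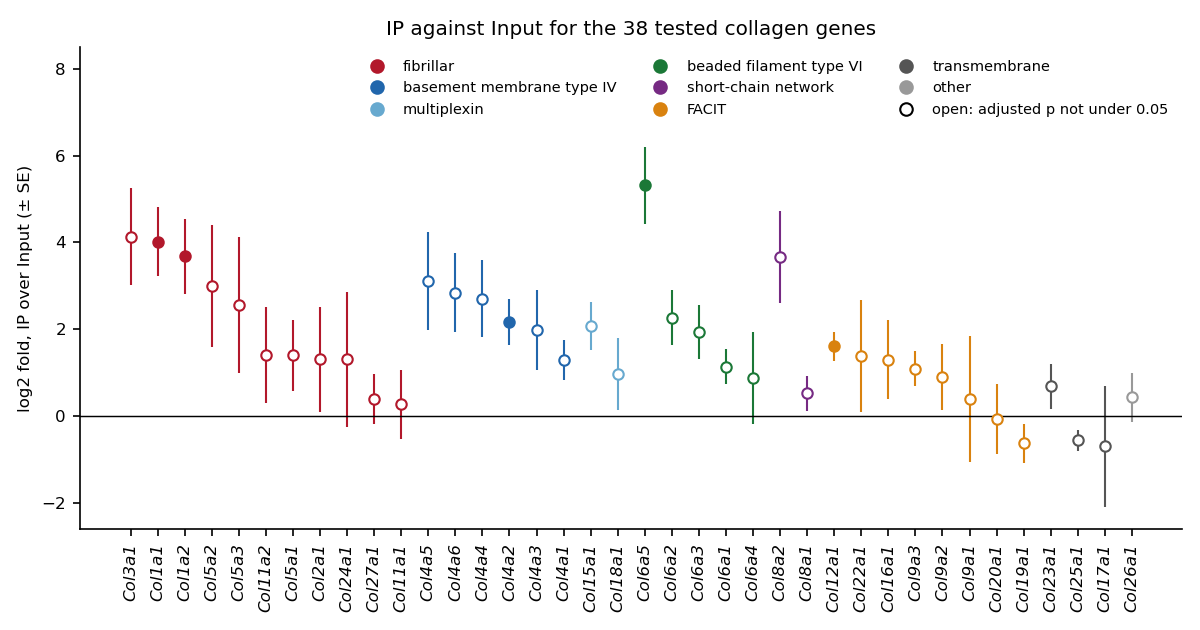
Log2 fold of IP over Input (y axis, points, with bars of 1 SE) for the 38 tested collagen genes (x axis), coloured by class; filled points passed the test. Col6a5 had the highest fold, at 5.31, and the transmembrane and FACIT classes held the 4 folds below 0.

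Before the members are taken in turn, some facts of the libraries bear on them. Counts in genes ranged from 37203427 (Input 3) to 52175180 (IP 1), and 3 counts correspond to 0.0585 to 0.0819 CPM, counting error only. Reads that fell in more than 1 gene made up 1.51% to 2.01% of all lines in IP and 9.33% to 12.9% in Input. Reads in no gene made up 18.4%, 8.85% and 8.15% in IP 1, 3 and 4 and 15.2% to 18.2% in Input. Those aligned to several places made up 19.8%, 29.6% and 39.3% in IP 1, 3 and 4 and 20.9% to 21.2% in Input. In these 2 shares IP 1 was nearer the Inputs than the other IPs were. IP 1 stood apart from the other IPs: the summed level of 10 ependymal markers, led by Rsph1 and Ccdc153, was 213 CPM in IP 1, 2769 in IP 3 and 2286 in IP 4, against 26.1 to 47.3 in the Inputs. Other markers also moved with the groups. Of 12 markers of leptomeningeal fibroblasts 9 were higher in IP (2 with the replicate block), with sums of 142, 1038 and 587 CPM in IP 1, 3 and 4 and 80.8 to 124 in Input. The 2 with the highest mean level were Dcn, which was called, and Pdgfra, which was not (log2 fold 0.35, adjusted p = 0.627). Of 12 markers of mural cells, which wrap vessels, 3 were higher (Acta2, Tagln and Vtn; 0 with the block), with sums of 71.1, 874 and 385 CPM against 38.3 to 58.6. Of 10 tested endothelial markers 1 was higher (Cdh5; 0 with the block), and the sums of 15.6, 36.2 and 24.2 CPM overlapped the Inputs' 17.8 to 26.5. Of 9 markers of choroid plexus epithelium, led by Ttr and Kl, 0 were called (1 higher at an unadjusted p under 0.05, and 0 with DESeq2 or limma-voom). Of 7 astrocyte markers 2 were higher (Gfap and Mlc1), and of 6 oligodendrocyte markers 2 were lower (Mbp and Mobp), each 0 with the block. Of the 7 astrocyte folds 6 were positive, yet the sums were 1335, 2220 and 2518 CPM in IP 1, 3 and 4 and 2444 to 2634 in Input. The largest part was Slc1a2, with every IP below every Input (log2 fold −0.60, adjusted p = 0.116). No marker of these lists was at 0 throughout a group. Whether these cells had a part in the collagen values was not tested. In bulk RNA, fewer cells of a type and less RNA per cell cannot be told apart.

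Type I collagen is the main fibrillar collagen of the body, made of chains from Col1a1 and Col1a2. Col1a2 (ENSMUSG00000029661.16, GRCm38 chromosome 6, 4504814 to 4541544, plus strand) had 13.7, 117 and 63.4 CPM in IP 1, 3 and 4, and 3.34, 1.07, 12 and 3.78 CPM in Inputs 1 to 4. All IPs lay above all Inputs, and the lowest IP was close to the highest Input. The mean levels were 64.6 ± 51.4 CPM (n = 3, SD) in IP and 5.04 ± 4.78 (n = 4, SD) in Input, a log2 fold of 3.68 ± 0.86 (SE, adjusted p = 0.0416). The call held with the block (log2 fold 3.14, adjusted p = 0.0416). It was lost when no filter on low counts was used (adjusted p = 0.111), with limma-voom (adjusted p = 0.113), and when any library but IP 1 was left out.

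Col1a1 (ENSMUSG00000001506.10, GRCm38 chromosome 11, 94936224 to 94953042, plus strand) had 2.78, 29.1 and 31.1 CPM in IP 1, 3 and 4 and 2.43, 1.27, 0.928 and 0.540 CPM in Inputs 1 to 4. IP 1 lay just above Input 1, while IP 3 and IP 4 were far above every Input. The means of 21.0 ± 15.8 (n = 3, SD) and 1.29 ± 0.814 CPM (n = 4, SD) gave a log2 fold of 4.02 ± 0.80 (SE, adjusted p = 0.0231). The log2 ratio to the Input of the same lane was 0.19 for number 1, 4.90 for number 3 and 5.73 for number 4. With the block the call was lost (log2 fold 3.96, adjusted p = 0.229), and it was also lost without IP 4 or any 1 Input.

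Col3a1 (ENSMUSG00000026043.18, GRCm38 chromosome 1, 45311538 to 45349706, plus strand) encodes the chain of type III collagen, which forms fibrils with type I in vessel walls and soft tissue. It had 2.56, 22.8 and 8.29 CPM in IP 1, 3 and 4 and 1.55, 0.0894, 0.846 and 0.0737 CPM in Inputs 1 to 4. All IPs again exceeded all Inputs, yet the log2 fold of 4.13 ± 1.11 (SE) missed the threshold (adjusted p = 0.0584). Without IP 1 it passed (adjusted p = 0.00486). Its exons overlap those of Gm47302 on the same strand, so its count is uncertain.

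The other 8 fibrillar members did not pass the test. Col5a1, Col5a2 and Col5a3 encode type V collagen, which helps to start fibrils, and had log2 folds of 1.39, 2.99 and 2.55 (adjusted p = 0.359, 0.241 and 0.381). Col5a2 shared the low IP 1 value of type I, at 0.30 CPM against 3.44 in IP 3 and 1.83 in IP 4. The cartilage fibril genes Col2a1, Col11a1 and Col11a2 had log2 folds of 1.31, 0.27 and 1.41. Col11a1 ran the other way from type I among the IPs, with its highest value in IP 1 (7.09 CPM, against 1.61 in IP 3 and 0.975 in IP 4). The minor fibrillar genes Col24a1 and Col27a1 had log2 folds of 1.31 and 0.39. Summed over all 11 fibrillar genes, the level was 39.6, 189 and 121 CPM in IP 1, 3 and 4 and 13.7 to 25.1 in Input. The class thus had 2 of 11 genes higher (0 lower), a median log2 fold of 1.41, and 1 gene higher with the block. Of these 11 genes, 6 could not have passed the filter on their Input reads alone. They entered the median only through their IP reads, so it is not a measure of the class free of that choice. The order of the IPs in these sums (IP 3 highest, IP 1 lowest) was also that of the fibroblast, mural, endothelial and ependymal marker sums given above. Other lists had IP 1 lowest but IP 4 highest. In IP 1, 3 and 4 the choroid plexus epithelium sums were 1309, 3038 and 3140 CPM and the oligodendrocyte sums 2190, 3004 and 3727. Those of 6 microglia markers (0 called) were 62.1, 65.1 and 102, and the astrocyte sums had the same order. The neuron sum was lowest in IP 4.

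**Figure D2:**
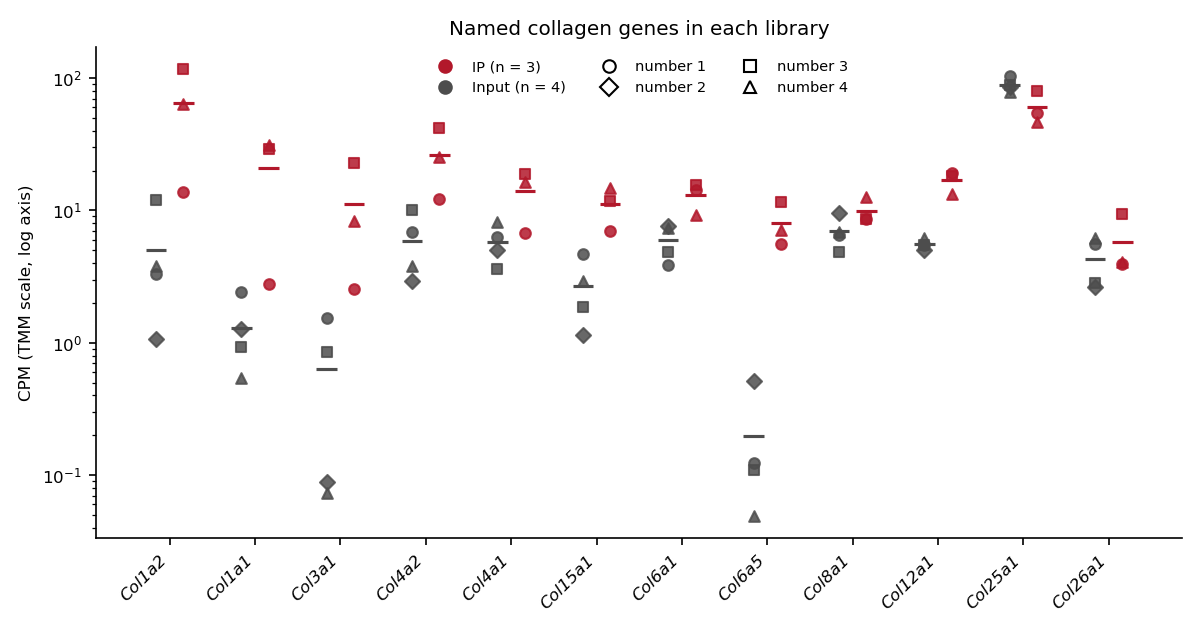
Level (y axis, CPM on a log axis) of the named collagen genes (x axis) in each library, with IP in red and Input in grey; the shape gives the replicate number and bars are means. IP 1 (red circles) lies near or within the Inputs for Col1a1, Col3a1 and Col4a1 and with the other IPs for Col6a5 and Col12a1.

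Of the type IV genes, Col4a1 and Col4a2 encode the chains found in nearly all basement membranes. Col4a2 (ENSMUSG00000031503.13, GRCm38 chromosome 8, 11312805 to 11449287, plus strand) had 12.2, 41.9 and 25.1 CPM in IP 1, 3 and 4 and 6.82, 2.91, 9.99 and 3.81 CPM in Inputs 1 to 4. All IPs exceeded all Inputs. The means were 26.4 ± 14.9 (n = 3, SD) and 5.88 ± 3.21 CPM (n = 4, SD), a log2 fold of 2.17 ± 0.52 (SE, adjusted p = 0.0409). With the block the call was lost (adjusted p = 0.142), as it was without any 1 library but IP 1.

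Col4a1 (ENSMUSG00000031502.11, GRCm38 chromosome 8, 11198423 to 11312826, minus strand) starts within the same 22 bases. It had 6.81, 19.0 and 16.5 CPM in IP 1, 3 and 4 and 6.33, 4.98, 3.63 and 8.13 CPM in Inputs 1 to 4, so that IP 1 fell inside the Input range. The log2 fold was 1.29 ± 0.46 (SE, adjusted p = 0.129), and 1.62 without IP 1 (adjusted p = 0.0113). In Input the levels of the 2 genes overlapped, with means of 5.77 ± 1.92 CPM for Col4a1 and 5.88 ± 3.21 for Col4a2 (n = 4, SD).

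The remaining type IV chains form the specialised networks of the kidney, eye, ear and smooth muscle. None of these 4 passed the test, with log2 folds of 1.99 for Col4a3, 2.70 for Col4a4, 3.11 for Col4a5 and 2.84 for Col4a6 (adjusted p = 0.234, 0.105, 0.135 and 0.0977; all 6 type IV genes: 5 higher at an unadjusted p under 0.05, 4 with DESeq2, 0 with limma-voom). Every IP was above every Input for Col4a3, Col4a4 and Col4a6. The head-to-head partners Col4a3 and Col4a4 did not share an order among the IPs: Col4a3 had 6.37, 2.67 and 1.48 CPM in IP 1, 3 and 4, and Col4a4 had 1.48, 3.26 and 3.84. Col4a3 overlaps C430014B12Rik on the opposite strand by 563 bases, which leaves its count uncertain. All 6 type IV genes had positive folds, with a median of 2.44, and their summed level was 29.3, 81.9 and 56.4 CPM in IP 1, 3 and 4 against 10.4 to 17.1 in Input.

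Multiplexins lie where basement membranes meet connective tissue, and Col18a1 is the source of the fragment endostatin. Col15a1 had 6.95, 11.9 and 14.9 CPM in IP 1, 3 and 4 and 4.71, 1.14, 1.86 and 2.95 CPM in Inputs 1 to 4. Its groups did not overlap, but its log2 fold of 2.07 ± 0.56 (SE) was outside the threshold (adjusted p = 0.0582; 0.00783 without IP 1). Col18a1 had a log2 fold of 0.97 (adjusted p = 0.549).

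Type VI collagen is built from the chains of Col6a1 and Col6a2 with a chain from Col6a3 or one of its relatives Col6a4, Col6a5 and Col6a6. Col6a5 (ENSMUSG00000091345.9, GRCm38 chromosome 9, 105856078 to 105960643, minus strand) had 5.57, 11.5 and 7.14 CPM in IP 1, 3 and 4 and 0.123, 0.514, 0.109 and 0.0491 CPM in Inputs 1 to 4. Every IP was more than 10 times the highest Input, and Input 4 was below the level of 3 counts. The means were 8.07 ± 3.07 (n = 3, SD) and 0.199 ± 0.213 CPM (n = 4, SD), and the log2 fold of 5.31 ± 0.88 (SE, adjusted p = 0.0147) was the highest of the collagens. Same-lane log2 ratios were 5.06, 6.22 and 6.25 for numbers 1, 3 and 4, so that IP 1 was not set apart for this gene. The call held with the block (log2 fold 6.38, adjusted p = 0.0380) and with limma-voom (adjusted p = 0.0392), and was lost without IP 4, Input 1, Input 3 or Input 4 (adjusted p = 0.0518 to 0.0609).

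Col6a1 had 14.3, 15.6 and 9.30 CPM in IP 1, 3 and 4 and 3.85, 7.64, 4.86 and 7.37 CPM in Inputs 1 to 4. All IPs were above all Inputs, with a log2 fold of 1.14 ± 0.41 (SE) that did not pass (adjusted p = 0.129). Col6a2 and Col6a3 also had all IPs above all Inputs, with log2 folds of 2.26 and 1.94 (adjusted p = 0.0668 and 0.0963). For Col6a4 the groups overlapped and the log2 fold was 0.88 (adjusted p = 0.689). Col6a6 stayed under the filter, with 1, 0 and 0 counts in IP 1, 3 and 4 and 0, 1, 18 and 9 in Inputs 1 to 4. Type VI had 1 of 5 tested genes higher and a median log2 fold of 1.94. Its summed level was 38.9, 45.1 and 29.5 CPM in IP 1, 3 and 4 and 9.69 to 14.2 in Input, without the low IP 1 value of the fibrillar and type IV sums.

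FACIT collagens bind to the surface of fibrils. Col12a1 (ENSMUSG00000032332.17, GRCm38 chromosome 9, 79598991 to 79718831, minus strand), whose product lies along type I fibrils, had 19.1, 18.3 and 13.2 CPM in IP 1, 3 and 4 and 5.49, 5.05, 5.51 and 6.16 CPM in Inputs 1 to 4. The groups lay well apart and the Inputs were close together. The means of 16.9 ± 3.20 (n = 3, SD) and 5.56 ± 0.459 CPM (n = 4, SD) gave a log2 fold of 1.60 ± 0.33 (SE, adjusted p = 0.0260). The call was lost with the block (log2 fold 1.54, adjusted p = 0.163), with limma-voom (adjusted p = 0.0580) and without any 1 library but IP 1, while the fold stayed between 1.5 and 1.75.

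Among the other FACITs, Col9a3, a chain of the type IX collagen of cartilage, had every IP above every Input, with a log2 fold of 1.09 (adjusted p = 0.140). Its exons overlap Tcfl5 on the opposite strand. Col9a1 and Col9a2, which encode the partner chains, had log2 folds of 0.39 and 0.90, Col16a1 one of 1.30 and Col22a1 one of 1.39. Col19a1 and Col20a1 had folds below 0, at −0.63 and −0.07 (adjusted p = 0.454 and 0.969). Col14a1 was under the filter, with 5, 10 and 0 counts in IP 1, 3 and 4 and 1, 2, 13 and 1 in Inputs 1 to 4. The FACIT sum was nearly level across the IPs, at 45.1, 47.9 and 44.8 CPM, and 24.6 to 32.8 in Input.

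**Figure D3:**
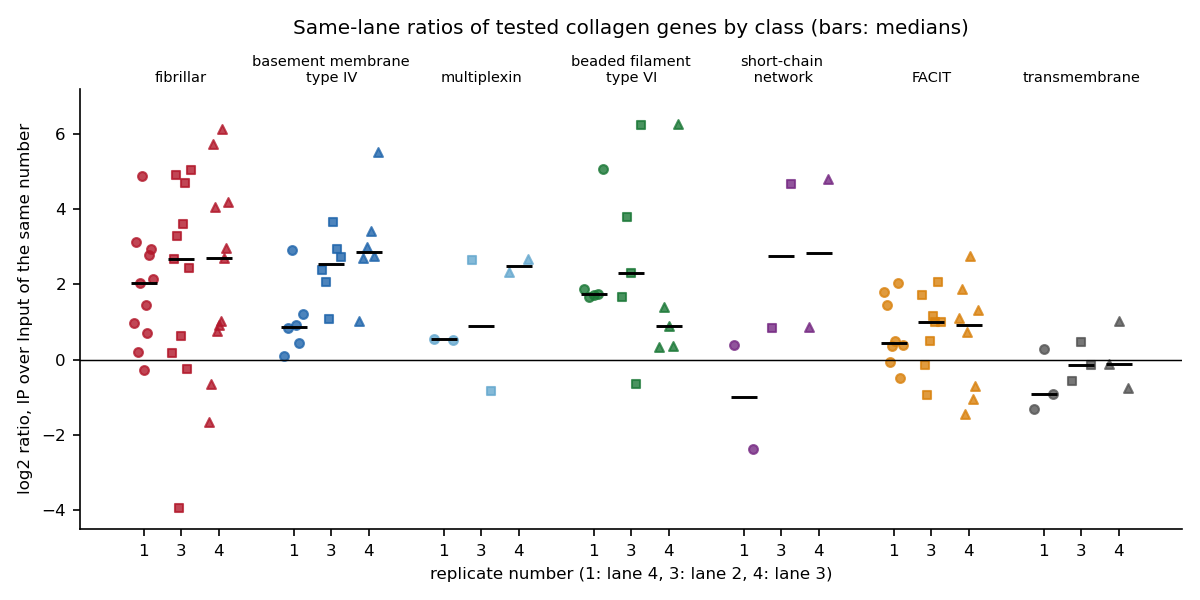
Log2 ratio of each IP to the Input of the same lane (y axis) for the tested collagens, by class and replicate number (x axis); each point is a gene and bars are medians. The fibrillar median was 2.03, 2.68 and 2.70 for numbers 1, 3 and 4, that of type IV 0.88, 2.55 and 2.87, and that of the transmembrane class −0.92, −0.15 and −0.12. Of the 11 fibrillar genes, 6 could not have passed the filter on their Input reads alone, which bears on the fibrillar medians.

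The short-chain collagens of type VIII form the hexagonal lattice of the corneal Descemet membrane and occur in vessel walls. Col8a1 had 8.63, 8.68 and 12.6 CPM in IP 1, 3 and 4 and 6.52, 9.50, 4.86 and 6.90 CPM in Inputs 1 to 4, with overlapping groups (log2 fold 0.52 ± 0.40 SE, adjusted p = 0.490). Its partner Col8a2, chosen after its values were seen, showed a wider split among the IPs, with 0.380, 19.0 and 18.2 CPM in IP 1, 3 and 4. The Inputs held 2.16, 0.469, 0.710 and 0.614 CPM, so IP 1 lay below all of them and IP 3 and IP 4 far above. The log2 fold was 3.66 ± 1.06 (SE, adjusted p = 0.0743), and the gene passed without IP 1 (adjusted p = 0.000144). Col10a1, the short-chain collagen of hypertrophic cartilage, had 0, 4 and 0 counts in IP 1, 3 and 4 and 1, 0, 0 and 2 in Inputs 1 to 4.

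In the transmembrane class 2 of the 3 tested genes had folds below 0, and 0 were called in either direction by edgeR, DESeq2 or limma-voom (before adjustment, 1 had a p under 0.05). Col25a1 (ENSMUSG00000058897.17, GRCm38 chromosome 3, 130131501 to 130599877, plus strand), a neuronal collagen first found in the amyloid plaques of Alzheimer's disease, was the collagen with the highest mean CPM over all 7 libraries; in IP alone the mean of Col1a2 was higher. It had 54.6, 79.5 and 46.7 CPM in IP 1, 3 and 4 and 104, 85.6, 88.5 and 79.1 CPM in Inputs 1 to 4. IP 1 and IP 4 were below every Input, and IP 3 lay just above Input 4. The means were 60.3 ± 17.1 (n = 3, SD) and 89.2 ± 10.4 CPM (n = 4, SD), and the log2 fold of −0.57 ± 0.23 (SE) did not pass (adjusted p = 0.183). Same-lane log2 ratios were −0.92, −0.15 and −0.76 for numbers 1, 3 and 4. The summed level of 8 neuron markers, led by Snap25 and Syt1, was 7343 to 8408 CPM in IP and 10038 to 12466 in Input, with 0 markers called (3 lower at an unadjusted p under 0.05, and 0 with DESeq2 or limma-voom), and its part in the Col25a1 values was not tested.

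Col23a1 had a log2 fold of 0.68 (adjusted p = 0.493). Col17a1, a part of the hemidesmosomes of epithelia, was under 1 CPM in every library, with a log2 fold of −0.70 (adjusted p = 0.824). Col13a1 was the only collagen with 0 counts in all 4 Inputs, and it had 9, 145 and 45 counts in IP 1, 3 and 4. Against the level of 3 counts per library (0.0819 CPM, the highest such level of the Inputs) its IP mean of 1.42 ± 1.58 CPM (n = 3, SD) was at least 17.3-fold higher. It stayed under the filter in the main test, and was called when no filter was used (adjusted p = 0.0440) and without IP 1 (adjusted p = 0.00481). With 0 counts in all 4 Inputs, it could enter the fit without IP 1 only on its IP reads.

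The last members fit none of these classes. Col26a1 had 3.90, 9.38 and 4.08 CPM in IP 1, 3 and 4 and 5.59, 2.64, 2.81 and 6.19 CPM in Inputs 1 to 4, with overlapping groups (log2 fold 0.43 ± 0.56 SE, adjusted p = 0.721). Col7a1, the anchoring fibril collagen of skin, had 11, 1 and 7 counts in IP and 1, 0, 0 and 1 in Input, and Col28a1 had 11, 0 and 0 in IP and 1, 2, 0 and 1 in Input.

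Seen as shares of all collagen CPM, the classes were ordered differently in the 2 kinds of library. Transmembrane collagens made up 54.2%, 55.1%, 51.6% and 47.7% of the collagen CPM in Inputs 1 to 4, and 25.5%, 18.7% and 15.3% in IP 1, 3 and 4. Most of that was Col25a1, with a mean of 89.2 of the class's 94.9 CPM in Input and 60.3 of 70.3 in IP. Of the other transmembrane genes, Col17a1 had a fold below 0, Col23a1 one above 0, and Col13a1 had reads only in IP. Fibrillar collagens made up 7.84% to 13.2% in Input and 16.9%, 37.1% and 33.4% in the IPs. There Col1a2 and Col1a1 had means of 64.6 and 21.0 of the class's 117 CPM in IP. The class shares thus rest largely on these genes. The share of type VI was higher in IP 1 (16.6%) than in IP 3 (8.83%) and IP 4 (8.12%), and the share of FACITs was likewise highest in IP 1 (19.2%, against 9.38% and 12.3%). The total over all collagens was 235, 511 and 364 CPM in IP 1, 3 and 4, above the 164 to 199 CPM of the Inputs. These shares are descriptions without a test.

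**Figure D4:**
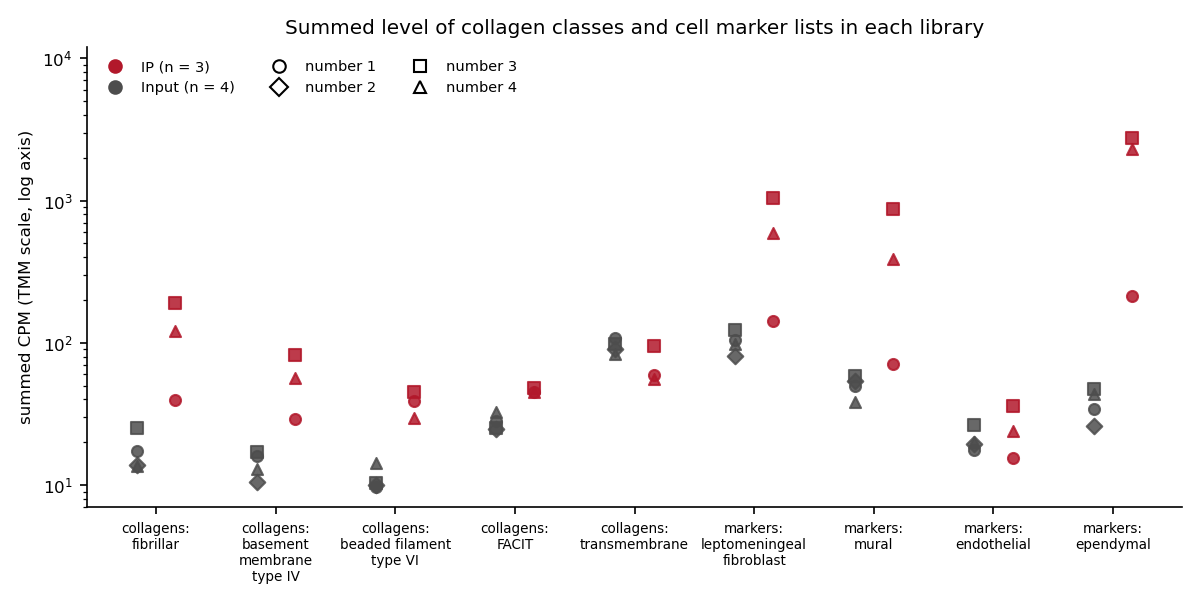
Summed level (y axis, CPM on a log axis) of collagen classes and cell marker lists (x axis) in each library, with IP in red, Input in grey and the replicate number as shape. The FACIT sums of the IPs lie together (44.8 to 47.9 CPM), while the fibrillar sums spread from 39.6 to 189 CPM, with IP 1 lowest, as it is for the 4 marker lists shown. Among the IPs it was also lowest for the astrocyte, oligodendrocyte, choroid plexus epithelium and microglia lists, which are not drawn.

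To compare genes with each other, CPM was divided by the length in kilobases of the longest protein-coding transcript. In Input, Col25a1 led with 13.3 ± 1.55 CPM per kilobase (n = 4, SD), well above Col19a1 at 2.34 ± 0.575 and Col9a3 at 2.13 ± 0.358, which did not differ beyond their spread. Col26a1 (1.55 ± 0.664), Col6a1 (1.45 ± 0.456) and Col8a1 (1.36 ± 0.376) followed, with overlapping spreads. In IP, Col1a2 stood first at 12.1 ± 9.61 CPM per kilobase (n = 3, SD) and Col25a1 second at 9.00 ± 2.56, a difference within the spread. Col9a3 (4.52 ± 1.91), Col4a2 (4.10 ± 2.31), Col1a1 (3.54 ± 2.66) and Col6a1 (3.19 ± 0.811) came next and could not be ordered beyond their spread. When the length of all annotated exons was used instead, the level of Col1a2 in IP was 5.20 and that of Col25a1 4.66 CPM per kilobase. With that length Col26a1 moved from rank 4 to rank 10 in Input, at 0.527 CPM per kilobase, and Col9a3 (1.68) stood above Col19a1 (1.45).

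**Figure D5:**
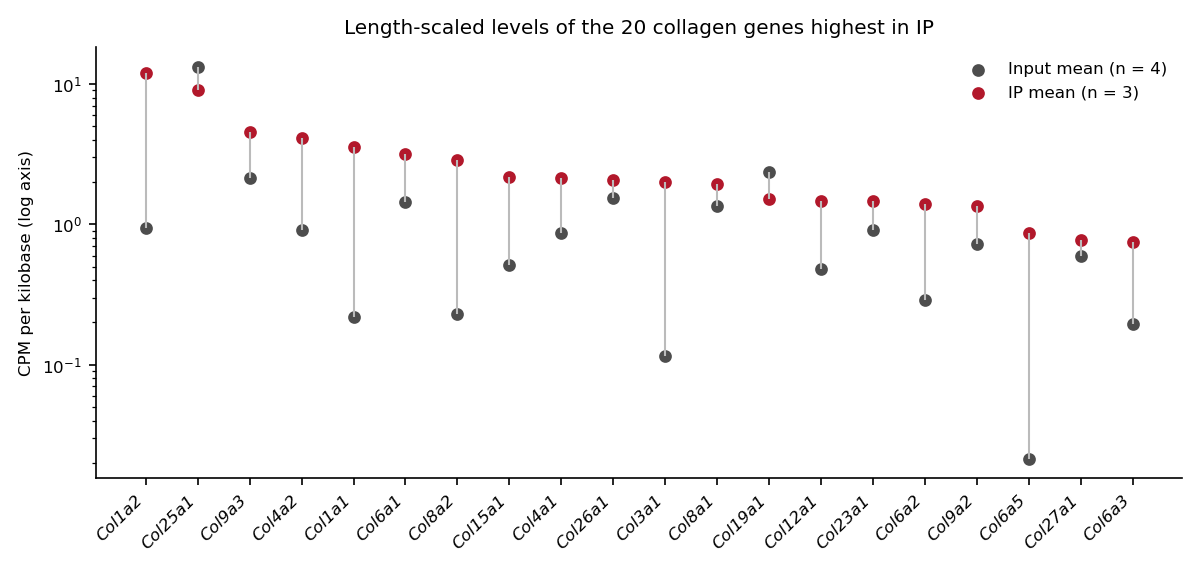
Mean CPM per kilobase of the longest coding transcript (y axis, log axis) for the 20 collagen genes highest in IP (x axis), in IP (red, n = 3) and Input (grey, n = 4). Col1a2 (12.1 in IP, 0.943 in Input) and Col25a1 (9.00 in IP, 13.3 in Input) are the 2 highest in IP.

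Collagen chains depend on a set of partners that fold, trim, bind and degrade them, listed by role. Of 77 such genes 71 were tested, and 12 were higher in IP and 0 lower (background 3.64% and 2.16%; before adjustment 1 had a p under 0.05 with a fold below 0, 0 lower with DESeq2 or limma-voom). Their median log2 fold was 1.24, against 0.06 over all genes. Of the 71, 8 could not have passed the filter on their Input reads alone. Among the called genes this held for Lamc3. The count was 28 higher and 1 lower (Agrn) without IP 1, when 12.5% of all genes were higher and 9.55% lower. It was 1 without IP 3, 0 without IP 4 or any 1 Input, and 1 with the block (Lamc3, against 0.54% of all genes). The number of all genes called also changed with the library left out, over the range given in the last section. The counts without IP 3, IP 4 or an Input have no share of all genes beside them.

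The genes that modify and fold the chains inside the cell, such as the prolyl hydroxylases P4ha1 and P4hb, the lysyl hydroxylases Plod1 to Plod3 and the collagen chaperone Serpinh1, had 0 of 18 called (5 higher at an unadjusted p under 0.05, 4 with DESeq2 and 0 with limma-voom), with a median log2 fold of 0.46. The smallest p was that of Fkbp10, an endoplasmic reticulum prolyl isomerase, with a log2 fold of 2.30 ± 0.65 (SE, adjusted p = 0.0658). Among 12 tested genes for propeptide removal and cross-linking, 1 was higher: Pcolce, which enhances the cutting of the C-propeptide, with 31.3 ± 20.1 CPM in IP (n = 3, SD) and 4.54 ± 3.08 in Input (n = 4, SD). Its log2 fold was 2.78 ± 0.70 (SE, adjusted p = 0.0492; 0.146 with the block), and its exons overlap Fbxo24 and Gm36266. Among the other called partners, exons of Lamc3 (382 bases), Prelp (350), Nid1 (143) and Ddr2 (90) overlap genes on the opposite strand. Their counts are uncertain in the same way.

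Proteins that bind to fibrils held 5 called genes of 10 tested, with a median log2 fold of 3.05. These were the small leucine-rich proteoglycans Dcn (decorin), Lum (lumican), Fmod (fibromodulin), Ogn (osteoglycin) and Prelp, which regulate fibril width and spacing. Dcn had 27.7, 387 and 206 CPM in IP 1, 3 and 4 and 7.17 to 28.6 in Input, so IP 1 lay inside the Input range, unlike for Col1a2 (log2 fold 3.68 ± 0.77 SE, adjusted p = 0.0312). Prelp had 26.6, 295 and 306 CPM in the IPs and 16.9 to 22.6 in Input (log2 fold 3.48 ± 0.66 SE, adjusted p = 0.0231). The log2 folds of Lum, Fmod and Ogn were 3.56, 3.23 and 3.06 (adjusted p = 0.0293, 0.0468 and 0.0286). For Lum the groups also overlapped, with 3.92 CPM in IP 1 and 4.26 in Input 3. With the block all 5 calls were lost (adjusted p = 0.0654 to 0.203). Dcn, Lum and Ogn are also in the list of leptomeningeal fibroblast markers, so the lists are not independent.

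Of the 15 other basement membrane genes, 5 were higher and all 15 had positive folds. Hspg2 (perlecan) had 17.8, 16.9 and 19.1 CPM in IP 1, 3 and 4 and 1.56 to 4.26 in Input, without the low IP 1 value of type IV (log2 fold 2.65 ± 0.43 SE, adjusted p = 0.0142; 0.0760 with the block). The laminin chains Lamb2, Lamc1 and Lamc3 had log2 folds of 2.35, 1.39 and 5.69 (adjusted p = 0.0231, 0.0286 and 0.0323). Lamc3 kept its call with the block (adjusted p = 0.0359), while Lamb2 and Lamc1 did not (adjusted p = 0.150 and 0.0967). Lamc3 reached the filter's 0.236 CPM in only 2 Inputs, with 0 to 0.519 CPM in the Inputs. It thus could not have passed the filter on its Input reads alone. Nid1, which links laminin and type IV networks, had a log2 fold of 2.41 (adjusted p = 0.0473; 0.133 with the block). Agrn (agrin), chosen after its values were seen, had 353 CPM in IP 1 against 31.6 in IP 3 and 37.7 in IP 4, and 59.1 to 69.9 in Input.

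Among 9 collagen receptors, 1 was higher: Ddr2, a receptor tyrosine kinase that binds fibrillar collagen, with 9.79, 17.1 and 12.6 CPM in IP 1, 3 and 4 and 1.77 to 4.29 in Input (log2 fold 2.17 ± 0.48 SE, adjusted p = 0.0318; 0.119 with the block). The integrin chain gene Itgb1, shared by the collagen-binding integrins, had a log2 fold of 1.20 (adjusted p = 0.0846). Of 7 tested genes for breakdown, 0 were called (unadjusted, 2 had p under 0.05 with positive and 1 with negative folds; 1 was higher with DESeq2 and 0 with limma-voom). The smallest p there was that of the gelatinase Mmp2, with a log2 fold of 2.38 ± 0.91 (SE, adjusted p = 0.153).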

How the data were processed

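The authors deposited 1 table of whole-number counts per gene symbol for each of 7 libraries (3 IP, 4 Input). Per the submitters' processing notes, STAR 2.0.0e, HTSeq and build mm10 were used. Which annotation and strand setting were used is not given in the sources used here, so overlapping genes cannot be separated. Lines for reads in no gene, in several genes or aligned to several places stayed out of library sizes and tests (40.1% to 52.1% of lines per library).

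The filter filterByExpr (edgeR 4.0.16, R 4.3.3; at least 10 counts, 15 in total, which is about 0.236 CPM in 3 or more libraries) left 17375 genes. The test of IP against Input was the quasi-likelihood F test of edgeR (robust glmQLFit, TMM factors, no term but group), with Benjamini-Hochberg adjustment across the tested genes and a threshold of 0.05. CPM is scaled by TMM factors, and the SE of a log2 fold is the fold over the square root of the test statistic. Single-library log2 ratios used a prior count of 2. Alternatives used DESeq2 1.42.0, limma 3.58.1 (voom), other scaling, no filter, the replicate block (without Input 2) and left-out libraries. The script was tested on simulated data with the same spread for every gene and no library set apart. The real IPs are unlike that, so the simulation checks the code only.

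The IP and Input of each number ran on the same lane per the labels (number 1 on lane 4, number 3 on lane 2, number 4 on lane 3, and Input 2 alone on lane 1). Numbers were therefore taken to pair libraries in the block fit and the same-lane ratios. The main test did not pair libraries. After the group means were removed, libraries with the same number correlated at 0.0318, 0.0426 and 0.0258 across genes. An IP and an Input of different numbers correlated at −0.0391 to 0.0119. Genes are not independent replicates, and the difference was not tested.

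Positions and lengths are from GENCODE M21 (GRCm38, which mm10 is). Of the members, 38 were tested and 6 were under the filter. Values in every library are given for called members, the highest of each class, and Col1a1, Col1a2, Col3a1, Col4a1 and Col4a2. Of the partners, called members and the smallest p of each list are named. The members and lists were chosen with earlier results of these data known.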

Additional observations from a re-analysis of the deposited data

Results flagged for a closer look

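In 7 collagen genes the highest of the 4 Inputs stood apart from the other Inputs by a Dixon test at the 95% level, which chance alone gives in about 1 of 20 groups. Input 4 had 2.24 CPM of Col11a2, with the next Input at 0.382. Input 3 had 0.355 CPM of Col14a1, a gene under the filter (next 0.0447). It also had 3.58 CPM of Col18a1 (next 1.20) and 8.98 CPM of Col23a1 (next 4.09). Input 2 had 1.07 CPM of Col5a3 (next 0.172) and 0.514 CPM of Col6a5 (next 0.123). Input 1 had 2.16 CPM of Col8a2 (next 0.710). Of these, Col6a5 was called higher in IP, and it was called without Input 2 as well (log2 fold 6.39, adjusted p by edgeR = 0.0279).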

How the results depend on the processing

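All genes higher in IP numbered 633, against 1396 with DESeq2, 62 with limma-voom, 92 with the replicate block and 4 to 2259 when 1 library was left out. Genes lower numbered 376, against 962, 171, 29 and 16 to 1724. Collagens higher numbered 5, against 13, 1, 2 and 0 to 15, and collagens lower 0 in every setting run. Partners higher numbered 12, against 22, 1, 1 and 0 to 28, and partners lower 0, against 0, 0, 0 and 0 to 1. The causes were not tested. DESeq2 size factors and total counts called the same 5 collagens, and total counts moved the median log2 fold of all genes from 0.06 to 0.10. Without the filter 5 were called, of which 4 were shared (Col13a1 in, Col1a2 out). No collagen fold changed sign with a call under any setting. With the block, 3 collagens lost their call and 35 kept their side of the threshold. The length of all annotated exons was added after seeing the data. At 3 counts per library the depth sets a level of 0.0585 to 0.0819 CPM, below which a low level cannot be told from 0.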
